A study of Rattus norvegicus with 6 samples.

Results

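Lyve1 was examined together with 9 other genes of resident macrophages in the vestibular sensory epithelium of rats exposed to an ototoxic compound. The 10 genes were Lyve1, Mrc1, Cd163, Csf1r, Cx3cr1, Ptprc, Itgam, Aif1, Cd68 and Trem2. They were chosen by name with the result of this comparison already known, since Lyve1 is among the upregulated genes, so their values are described and no test is given for them. The question was whether the higher Lyve1 level went with the genes of perivascular macrophages, Mrc1 and Cd163, or with macrophage genes in general. Of the 10 genes, 9 had a row among the 32883 genes of the deposited table, and all 9 were among the 14352 genes with enough counts to be tested. Itgam, the integrin subunit also called CD11b, had no row under this symbol or its older name and is not analysed here.

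Macrophages live in nearly every tissue, where they take up debris, survey other cells and depend on growth factor signals through the receptor Csf1r. A population that lies along blood vessels carries scavenger receptors, among them Mrc1 and Cd163, and in many tissues the hyaluronan receptor Lyve1. Lyve1 is also a classical marker of lymphatic endothelium, so a change of Lyve1 alone does not name a cell. In the inner ear, resident macrophages lie below and beside the sensory epithelium and are known to approach hair cells (HCs) after damage.

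The animals were adult male Long-Evans rats, and the labels name no transgene. The 3 control rats drank plain water, and the 3 rats of the IDPN-4wk group drank 20 mM 3,3'-iminodipropionitrile (IDPN), which is toxic to HCs, for 4 weeks. The epithelia of 2 utricles and 6 cristae were pooled per rat, so each of the 6 libraries is a single animal, and the saccule was not included. Libraries were made from whole dissected tissue with an oligo-dT primer, and the labels give 1 batch for all of them. The 3 IDPN-4wk rats share a prefix in their animal codes that no control rat has. The labels do not say what it stands for, and if it marks a cage or a litter, that cannot be told apart from the treatment.

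The promoters of 4 of these genes are shown because they are the genes the comparison turns on: Lyve1, both perivascular partners, and Trem2, which was on the higher side with Lyve1. Each sequence runs 5′ to 3′ along the gene's own strand, from 250 bases before the transcription start to 50 bases after it, and comes from RefSeq on the build GRCr8, whereas the read counts were made on Rnor6.0. Capitals mark the letters GAGGAA, the core that the macrophage factor PU.1 recognises, in either orientation (TTCCTC on the opposite strand). Lyve1 lies at chr1:174410928-174411227 on the minus strand, Mrc1 at chr17:82157475-82157774 on the plus strand, Cd163 at chr4:158770524-158770823 on the plus strand and Trem2 at chr9:20151730-20152029 on the minus strand.
Lyve1: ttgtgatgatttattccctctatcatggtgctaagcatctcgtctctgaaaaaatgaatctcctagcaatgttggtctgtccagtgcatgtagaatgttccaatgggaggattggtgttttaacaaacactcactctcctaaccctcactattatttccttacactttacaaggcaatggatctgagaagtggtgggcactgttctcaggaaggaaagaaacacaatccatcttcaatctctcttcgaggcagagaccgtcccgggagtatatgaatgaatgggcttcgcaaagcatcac
Mrc1: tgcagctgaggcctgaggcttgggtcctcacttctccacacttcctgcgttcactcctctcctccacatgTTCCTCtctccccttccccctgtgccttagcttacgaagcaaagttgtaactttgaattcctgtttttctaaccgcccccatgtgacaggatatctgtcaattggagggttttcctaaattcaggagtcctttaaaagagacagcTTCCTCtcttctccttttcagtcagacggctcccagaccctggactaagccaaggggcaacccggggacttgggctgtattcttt
Cd163: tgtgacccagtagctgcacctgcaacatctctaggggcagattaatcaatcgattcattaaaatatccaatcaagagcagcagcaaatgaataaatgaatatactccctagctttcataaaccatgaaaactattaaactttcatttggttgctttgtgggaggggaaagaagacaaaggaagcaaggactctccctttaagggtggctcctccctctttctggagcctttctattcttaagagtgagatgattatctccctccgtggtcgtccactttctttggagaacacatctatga
Trem2: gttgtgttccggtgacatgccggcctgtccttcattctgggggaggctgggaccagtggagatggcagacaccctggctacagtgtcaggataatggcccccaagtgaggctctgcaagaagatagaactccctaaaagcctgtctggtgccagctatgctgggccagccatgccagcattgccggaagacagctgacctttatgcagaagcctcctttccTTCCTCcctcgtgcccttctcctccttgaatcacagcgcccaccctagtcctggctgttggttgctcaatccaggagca

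GAGGAA stood in the promoters of Mrc1 at 2 positions and of Trem2 at 1 position, and in neither Lyve1 nor Cd163. A promoter was at hand for 9 of the 10 genes, all but Aif1, and 6 of these held the letters at least once: Mrc1, Cd68, Csf1r, Itgam, Ptprc and Trem2. For comparison, 27.6% of 33469 rat promoters of the same length held them. An interferon-stimulated response element, read here as GAAA, any 2 bases and GAAA again, was in 3.92% of all promoters and in 0 of the 9. TGCTGAC, which MAF factors recognise, was in 4.443% of all promoters and likewise in 0 of the 9. Both strands were searched, overlapping matches were counted, and a match is only a description of the letters.

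Libraries held between 13358678 and 18561991 counts. A level of 3 counts, taken here as the floor, was worth 0.155 to 0.216 CPM depending on the library, where CPM are counts scaled to a common library size. Levels are given in CPM after TMM scaling, which corrects for unequal composition of the libraries, and they serve to compare libraries for 1 gene, not genes with each other, because gene lengths were not used. Fold changes come from the edgeR quasi-likelihood fit over all genes tested. A gene was called upregulated or downregulated when its Benjamini-Hochberg adjusted p (Padj) was under 0.05 and its fold change was over 1.5. This held for 1394 genes (9.71%): 444 (3.09%) were higher and 950 (6.62%) were lower in IDPN-4wk. The tissue label was checked with 10 genes of the vestibular sensory epithelium. All 10 were expressed in every library, and 5 of them, among them Otof, Otog and Myo7a, were downregulated in IDPN-4wk, Myo7a not without control replicate 2 (log2-Fold change -0.58) or with library size alone as the scaling (-0.53).

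Among the 9 macrophage genes with values, Lyve1 was 3.01-fold higher in IDPN-4wk, while Mrc1 stood at 75.3% and Cd163 at 48.1% of its control level. Of the general macrophage genes, Csf1r, Ptprc, Aif1 and Cx3cr1 were between 65.8% and 111% of control, and Cd68 was 1.55-fold higher. Trem2 was 1.69-fold higher, and the groups overlapped for each of these 8 genes. The 1 gene of the 9 that passed both thresholds was Lyve1, beside 9.71% of all genes. Lyve1 was also the only one of the 9 whose 3 IDPN-4wk libraries all lay on the same side of the control range, beside 37.8% of all genes tested (18.5% above and 19.3% below). Both counts include the value that led to the choice of Lyve1, so nothing is read from them. The median log2-Fold change was -0.08 over the 9 genes and -0.25 over the 8 without Lyve1, against 0.02 over all genes tested. It moved with the library left out: over the 8 genes, the median was -0.62 without IDPN-4wk replicate 1 but 0.10 when replicate 2 was left out. In bulk tissue, fewer cells of a type and less RNA per cell cannot be told apart.

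Lyve1 (ENSRNOG00000026902) encodes a membrane receptor that binds hyaluronan. Its level was 14.2, 14.7 and 12.0 CPM in the 3 control libraries and 39.8, 40.0 and 43.1 CPM in the 3 IDPN-4wk libraries. These values rest on 169 to 220 counts per control library and 554 to 776 per IDPN-4wk library. All IDPN-4wk libraries lay far above all control libraries, and the libraries of a group lay close together: the highest was 1.23 times the lowest in control and 1.08 times the lowest in IDPN-4wk. The mean was 13.6 ± 1.45 CPM in controls against 41.0 ± 1.85 CPM in IDPN-4wk (SD, n = 3 each), a log2-Fold change of 1.59 (SE 0.12). Ranked from the largest increase, Lyve1 stood at 104 of the 14352 genes.

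Mrc1 (ENSRNOG00000018251), the mannose receptor also called CD206, is a scavenger receptor of perivascular and other resident macrophages. It was measured at 18.4, 16.1 and 14.4 CPM in controls against at 19.7, 6.55 and 10.6 CPM in IDPN-4wk. The highest and the lowest of the 6 libraries were both IDPN-4wk, replicates 1 and 2, so the control range lay inside that of the treated rats. The log2-Fold change was -0.43 (SE 0.31), from 16.3 ± 1.99 to 12.3 ± 6.73 CPM (SD, n = 3 each). It was -0.94 without IDPN-4wk replicate 1 but -0.12 when replicate 2 was left out.

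Cd163 (ENSRNOG00000010253) is the receptor through which macrophages clear haemoglobin bound to haptoglobin. Control libraries gave 12.4, 7.06 and 3.75 CPM and IDPN-4wk libraries gave 5.32, 3.66 and 2.19 CPM. Cd163 varied widely within both groups, 3.31-fold among controls, and control replicate 3 lay among the treated libraries. The mean was 7.74 ± 4.36 CPM in controls against 3.72 ± 1.57 CPM in IDPN-4wk (SD, n = 3 each), a log2-Fold change of -1.06 (SE 0.42). Without control replicate 1, which held the highest level, it was -0.54. Thus for neither perivascular partner was the mean higher in IDPN-4wk.

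**Figure D1:**
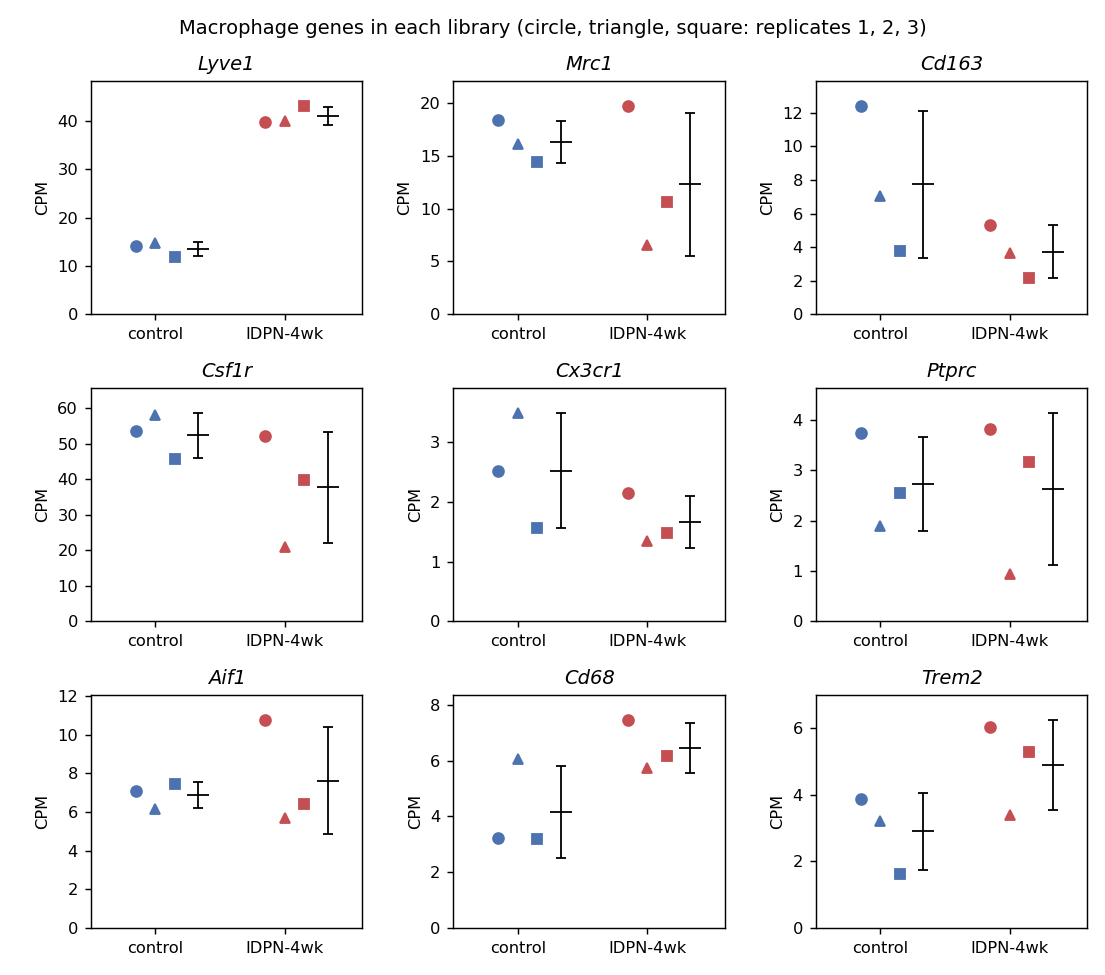
Level in CPM after TMM scaling (y axis from 0) of the 9 macrophage genes in each of the 6 libraries, with control in blue and IDPN-4wk in red; circles, triangles and squares are replicates 1, 2 and 3, and the bars give the mean and SD of each group. Lyve1 lies between 12.0 and 14.7 CPM in controls against between 39.8 and 43.1 CPM in IDPN-4wk, whereas the groups overlap in the other 8 panels.

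Csf1r (ENSRNOG00000018414) is the receptor for the growth factors Csf1 and Il34, on which tissue macrophages depend. Its level was 53.7, 58.0 and 45.6 CPM in controls against 52.2, 21.0 and 39.9 CPM in IDPN-4wk. IDPN-4wk replicate 2 lay far below the other 5 libraries, and replicate 1 lay within the control range. The log2-Fold change was -0.49 (SE 0.25), and it was -0.80 without IDPN-4wk replicate 1 but -0.19 when replicate 2 was left out.

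Ptprc (ENSRNOG00000000655), the phosphatase CD45 of all leukocytes, was low, at 3.75, 1.89 and 2.55 CPM in controls against 3.81, 0.928 and 3.15 CPM in IDPN-4wk. The highest and the lowest values were again IDPN-4wk replicates 1 and 2. Its log2-Fold change was -0.08 (SE 0.47), and its sign depended on the setting, from -0.45 without IDPN-4wk replicate 1 to 0.34 without IDPN-4wk replicate 2. Aif1 (ENSRNOG00000000853), the calcium-binding protein IBA1 used to stain macrophages and microglia, was at 7.10, 6.15 and 7.43 CPM in controls against 10.8, 5.67 and 6.44 CPM in IDPN-4wk. IDPN-4wk replicate 1 lay above and replicate 2 below all controls, for a log2-Fold change of 0.14 (SE 0.25), which was -0.20 without IDPN-4wk replicate 1. Cx3cr1 (ENSRNOG00000018509), the receptor of fractalkine, rested on 22 to 50 counts per library. Its control values of 2.52, 3.49 and 1.56 CPM spanned a wider range than the IDPN-4wk values of 2.16, 1.34 and 1.48 CPM, and the log2-Fold change was -0.61 (SE 0.38). It was -0.31 without control replicate 2.

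Cd68 and Trem2 both relate to uptake and lipid handling in macrophages, and both leaned the other way. Cd68 (ENSRNOG00000037563), a glycoprotein of lysosomes, was at 3.23, 6.08 and 3.19 CPM in controls against 7.48, 5.73 and 6.18 CPM in IDPN-4wk. Control replicate 2 lay among the treated libraries, and the other controls lay below them. The log2-Fold change was 0.63 (SE 0.28), and it was 1.00 without control replicate 2. Trem2 (ENSRNOG00000013578) is a receptor for lipids that signals through the adaptor Tyrobp. Its level was 3.87, 3.22 and 1.63 CPM in controls against 6.04, 3.40 and 5.28 CPM in IDPN-4wk. The groups overlapped between control replicate 1 and IDPN-4wk replicate 2, and the log2-Fold change was 0.74 (SE 0.35). Without control replicate 3, which held the lowest level, it was 0.46.

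**Figure D2:**
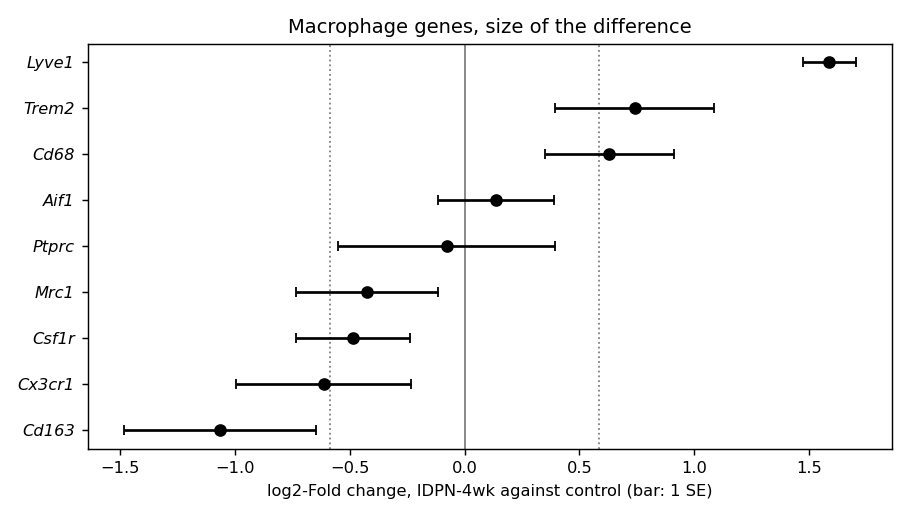
Log2-Fold change of IDPN-4wk against control for the 9 macrophage genes, as points with a bar of 1 SE on each side; the dotted lines mark a fold change of 1.5 in either direction. Lyve1 stands at 1.59, Trem2 and Cd68 follow at 0.74 and 0.63, and Mrc1 (-0.43) and Cd163 (-1.06) lie below 0.

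The libraries of the treated rats were ordered alike by the other genes but not by Lyve1. All 8 other genes were highest, among the IDPN-4wk libraries, in replicate 1, and 7 of the 8 were lowest in replicate 2, the exception being Cd163, lowest in replicate 3. Over all genes tested, 29.8% were highest in replicate 1 and 33.0% were lowest in replicate 2. Lyve1 was lowest in replicate 1 and highest in replicate 3, within a range of 1.08-fold. The summed level of the 8 genes was 105, 102 and 80.1 CPM in controls against 107, 48.3 and 75.2 CPM in IDPN-4wk. In a list of general macrophage genes that excluded the 10, 22 of the 34 tested (64.7%) were highest in replicate 1 and lowest in replicate 2, against 14.66% of all genes tested. The summed level of that list, in which single abundant genes weigh most, was 631, 441 and 643 CPM in replicates 1, 2 and 3, so by the sum replicate 3 was highest. Among further perivascular and resident macrophage genes, 5 of 16 (31.2%) were highest in replicate 1 and lowest in replicate 2. Taken singly, 12 of the 16 were highest in replicate 1, beside 29.8% of all genes, and 8 were lowest in replicate 2, beside 33.0%. By the sum of the 8 genes, the treated rats differed among themselves by more than the group means did (95.7 ± 13.6 and 77.0 ± 29.6 CPM, SD, n = 3 each), while their Lyve1 levels were nearly equal.

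Ratios of counts within a library do not depend on the scaling between libraries and were used to set Lyve1 against each other gene. The ratio of Lyve1 to Mrc1 counts was 0.772, 0.909 and 0.828 in control and 2.02, 6.11 and 4.06 in IDPN-4wk. It was 4.41-fold higher in IDPN-4wk by the mean of its logarithm, and the groups did not overlap. The ratio of Lyve1 to Cd163 was 1.15, 2.08 and 3.19 in control and 7.49, 10.9 and 19.7 in IDPN-4wk, 5.93-fold higher.

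Against Csf1r, the ratio of Lyve1 was nearly constant in control, at 0.265, 0.253 and 0.262, and it was 0.763, 1.91 and 1.08 in IDPN-4wk, 4.47-fold higher. Against the summed general macrophage genes it was 3.17-fold higher. The log2 ratio of Lyve1 differed between the groups by 1.82 for Ptprc, 2.15 for Cx3cr1 and 0.90 for Cd68, and the ratio of Lyve1 to Aif1 was 2.83-fold higher, in each case with no overlap. For Trem2 the difference was 0.80 and the groups overlapped. By the group means, Lyve1 was thus higher relative to every other gene, least relative to Trem2 and Cd68 and most relative to Cd163. Lyve1 was chosen for its rise, so a higher ratio to any gene that rose less was set by that choice. The order of the genes largely restates their own fold changes.

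The remaining genes were also set against Csf1r. Mrc1 kept its proportion to Csf1r within the spread of the libraries: the ratio was 0.343, 0.278 and 0.317 in control and 0.377, 0.312 and 0.267 in IDPN-4wk, a log2 difference of 0.02. The difference was 0.01 for Cx3cr1, 0.34 for Ptprc, -0.41 for Cd163 and 0.66 for Aif1, and the groups overlapped for each. Trem2 and Cd68 stood apart from these. The ratio of Trem2 to Csf1r was 0.0722, 0.0554 and 0.0357 in control and 0.116, 0.162 and 0.132 in IDPN-4wk, 2.57-fold higher with no overlap. The ratio of Cd68 to Csf1r was 2.39-fold higher, also with no overlap.

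**Figure D3:**
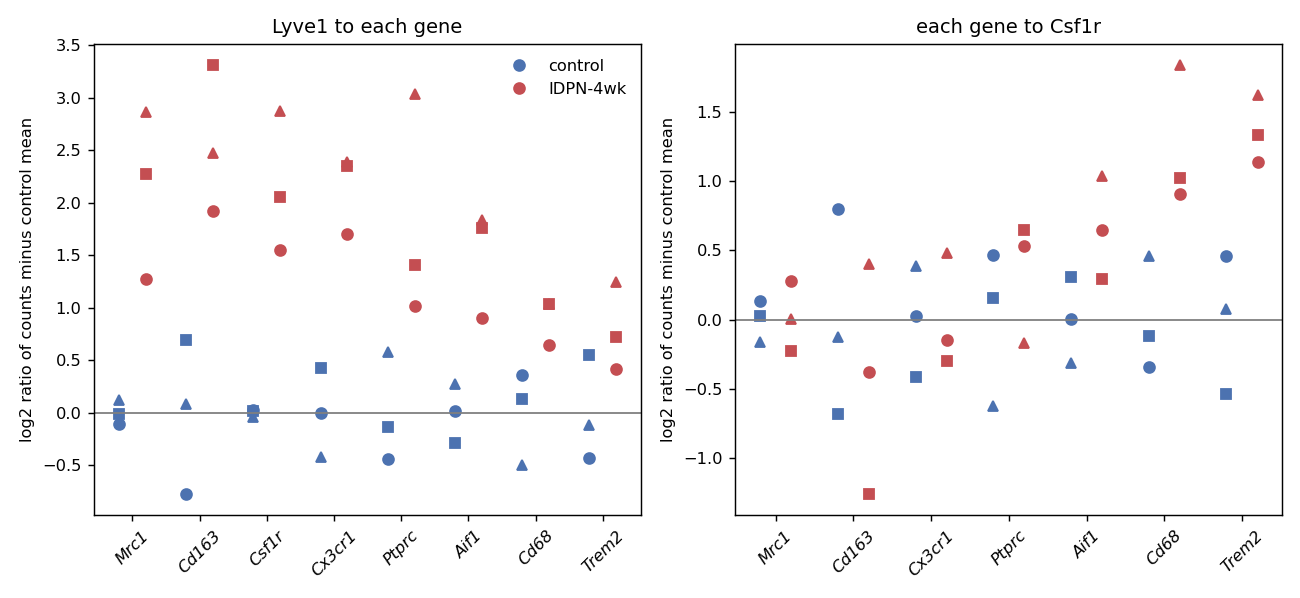
Log2 ratio of counts within each library minus the control mean, for Lyve1 to each other gene (left) and for each gene to Csf1r (right); control is blue, IDPN-4wk is red, and circles, triangles and squares are replicates 1, 2 and 3. On the left the red points lie above the blue ones for all genes but Trem2, which overlaps, and on the right this holds for Cd68 and Trem2.

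The genes whose pattern over the 6 libraries was most like that of Lyve1 were sought among the other 14351 genes tested. Likeness was the root mean square difference between log2 CPM values after each gene was centred on its own mean, so that 0 means the same pattern. The 5 closest genes were Chaf1b (0.116), Plau (0.164), Irf7 (0.169), Pola2 (0.177) and Gch1 (0.180), of which 0 are on any list of macrophage genes used here. Chaf1b, Gch1 and Plau were low, with control means of 0.522, 1.23 and 1.63 CPM. A prior count of 2 was added before logarithms were taken, which shrinks the differences of such low genes. Among the 8 other macrophage genes, Cd68 came closest (0.536, rank 583), followed by Trem2 (0.545, rank 629) and Aif1 (0.819, rank 7557). Cx3cr1 (1.10, rank 12777), Ptprc (1.11, rank 12810), Csf1r (1.14, rank 12994) and Mrc1 (1.16, rank 13091) lay close together and far from Lyve1, and Cd163 lay farthest (1.39, rank 13814). Because Lyve1 was chosen for its rise and varied little within a group, this distance mostly restates the fold change of each gene. Nothing further is read from the ranks.

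Ligands and partners of these receptors were compared next, and they have edgeR tests of their own. Csf1 encodes the main growth factor of macrophages and is bound by Csf1r. It rose from 18.4, 16.4 and 17.9 CPM in control to 38.5, 37.7 and 30.3 CPM in IDPN-4wk, with no overlap (log2-Fold change 1.01, SE 0.12, edgeR Padj 0.000323). The receptor itself did not show this pattern, as its values above show.

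Il34, the second ligand of Csf1r, showed a log2-Fold change of -0.14 (edgeR Padj 0.668). Cx3cl1, the ligand of Cx3cr1, had 0.60 (edgeR Padj 0.0735) and passed both thresholds without control replicate 2 (0.81), without IDPN-4wk replicate 3 (0.72) and also when scaled by library size alone (0.71). Tyrobp, the adaptor of Trem2, had 0.29 (edgeR Padj 0.525), and the ratio of Trem2 to Tyrobp was 1.41-fold higher in IDPN-4wk, with no overlap. Itgb2, which pairs with Itgam, had 0.22 (edgeR Padj 0.747), so the available partner of the gene without a row gave no call. Cd44, the other widespread hyaluronan receptor, had -0.34 (edgeR Padj 0.212).

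Of the 17 ligands and partners tested, 2 rose, Csf1 and Hmox1, and 1 fell, Cemip, beside 3.09% higher and 6.62% lower over all genes. The count of higher genes was 4 without IDPN-4wk replicate 3 or when scaled by library size alone, and 1 without IDPN-4wk replicate 1 or 2. Hmox1 encodes haem oxygenase, which degrades the haem taken up through Cd163. Its log2-Fold change was 0.77 (edgeR Padj 0.0140), and the call was lost without control replicate 2, IDPN-4wk replicate 1 or IDPN-4wk replicate 2. Cemip, a protein needed for hyaluronan breakdown, fell from 349 ± 33.3 to 185 ± 15.3 CPM (SD over n = 3 animals each; log2-Fold change -0.92, edgeR Padj 9.73e-05). The hyaluronidases Hyal1, Hyal2 and Hyal3 had log2-Fold changes of 0.15, 0.10 and 0.05 with edgeR Padj of at least 0.503.

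Further genes of perivascular and resident macrophages were taken from a list of 24 without Lyve1, Mrc1 and Cd163, of which 16 were tested. Of these 16 genes, 2 fell and 0 rose past both thresholds, beside 6.62% and 3.09% of all genes tested, and the median log2-Fold change was -0.06. The libraries of IDPN-4wk lay below all controls for 5 of the 16, above all controls for 0, and overlapped with control for 11, beside 19.3% below and 18.5% above over all genes. Ccl24, a chemokine of alternatively activated macrophages, fell from 7.49, 5.73 and 5.73 CPM in control to 2.44, 0.877 and 1.16 CPM in IDPN-4wk (log2-Fold change -2.11, SE 0.36, edgeR Padj 0.00260). Ednrb, an endothelin receptor that cells other than macrophages also make, fell to 54.4% of control (log2-Fold change -0.88, edgeR Padj 0.000302).

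Folr2, the folate receptor often found together with Lyve1, had 2.12 ± 1.26 CPM in controls against 3.23 ± 1.44 CPM in IDPN-4wk (SD over n = 3 animals each; log2-Fold change 0.60, edgeR Padj 0.404). The scavenger receptor Stab1 showed a log2-Fold change of 0.04 (edgeR Padj 0.923). F13a1, Clec10a and Siglec1 lay at 0.41, 0.24 and 0.48, with edgeR Padj of at least 0.431. Of the 16 genes tested, 8 were on the higher side and 8 on the lower side. Among the lower ones, the scavenger receptor Colec12 had -0.44 (edgeR Padj 0.00235), under the fold change threshold but with no overlap. Its level was 401 CPM in control, and which cells carried it was not tested. Maf and Ms4a6a had -0.38 and -0.72 (edgeR Padj 0.412 and 0.491). Timd4, Cbr2 and Cd209 had no row, and 5 further genes were under the filter on low counts, of which Vsig4 and Clec4f were at 0 in all 6 libraries.

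Of the 34 general macrophage genes tested, 2 rose and 1 fell, or 8.82% beside 9.71% of all genes tested, and the median log2-Fold change was 0.26. Cd14, the lipopolysaccharide co-receptor, rose from 15.2 ± 1.01 to 24.5 ± 1.61 CPM (SD over n = 3 animals each; log2-Fold change 0.69, edgeR Padj 0.00261). C1qb, a chain of complement C1q, rose by 0.71 on the log2 scale (edgeR Padj 0.0271), but not without control replicate 3 (0.53, edgeR Padj 0.0864) or IDPN-4wk replicate 1 (0.52, edgeR Padj 0.116). Its sister chains C1qa and C1qc had 0.30 and 0.37 and were not called (edgeR Padj 0.310 and 0.373). Lcp1, an actin-bundling protein of leukocytes, fell to 60.1% of control (log2-Fold change -0.74, edgeR Padj 0.000236). Its level was 81.9 CPM in control, and 5 of the 10 sensory epithelium genes fell in the same libraries. Which cells carried Lcp1 was not tested. The groups overlapped for 28 of the 34 genes, while 5 lay above and 1 lay below control in all libraries, beside 18.5% above and 19.3% below over all genes. Spi1, which encodes PU.1, had 0.41 (edgeR Padj 0.355), and the pan-macrophage gene Adgre1 (F4/80) had -0.34 (edgeR Padj 0.649).

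The genes that macrophages with high Trem2 are known to express, 14 of them tested, had a median of 0.03, with 3 higher and 1 lower, beside 3.09% and 6.62% of all genes. Lgals3, which encodes galectin-3, rose from 4.14 ± 0.711 to 10.2 ± 1.68 CPM (SD over n = 3 animals each; log2-Fold change 1.30, edgeR Padj 0.00208). Ch25h, which makes an oxysterol, rose 2.55-fold by its group means (log2-Fold change 1.34, edgeR Padj 0.000867). Plin2, a coat protein of lipid droplets, rose by 0.68 on the log2 scale (edgeR Padj 0.000450).

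Spp1, osteopontin, fell to 28.1% of control (log2-Fold change -1.83, edgeR Padj 3.66e-05). Other cells of the tissue also make Spp1 and Apoe, which were abundant in all libraries. Apoe was at 74.1% of control (log2-Fold change -0.43, edgeR Padj 0.00301), under the fold change threshold but with no overlap. Of the 14 tested genes of macrophages with high Trem2, 5 lay above and 5 below control in all libraries, and 4 overlapped. Over all genes tested, 18.5% lay above and 19.3% below. Itgax, the integrin CD11c, was at 0.194, 0.559 and 1.49 CPM in controls against 3.09, 0.516 and 3.99 CPM in IDPN-4wk, so the groups overlapped (edgeR Padj 0.133). Of 9 microglia genes, 6 were tested and 1 rose, beside 3.09% of all genes: Olfml3 (log2-Fold change 0.75, edgeR Padj 0.00458). P2ry12, P2ry13 and Siglech were under the filter, with Siglech at 0 in every library.

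**Figure D4:**
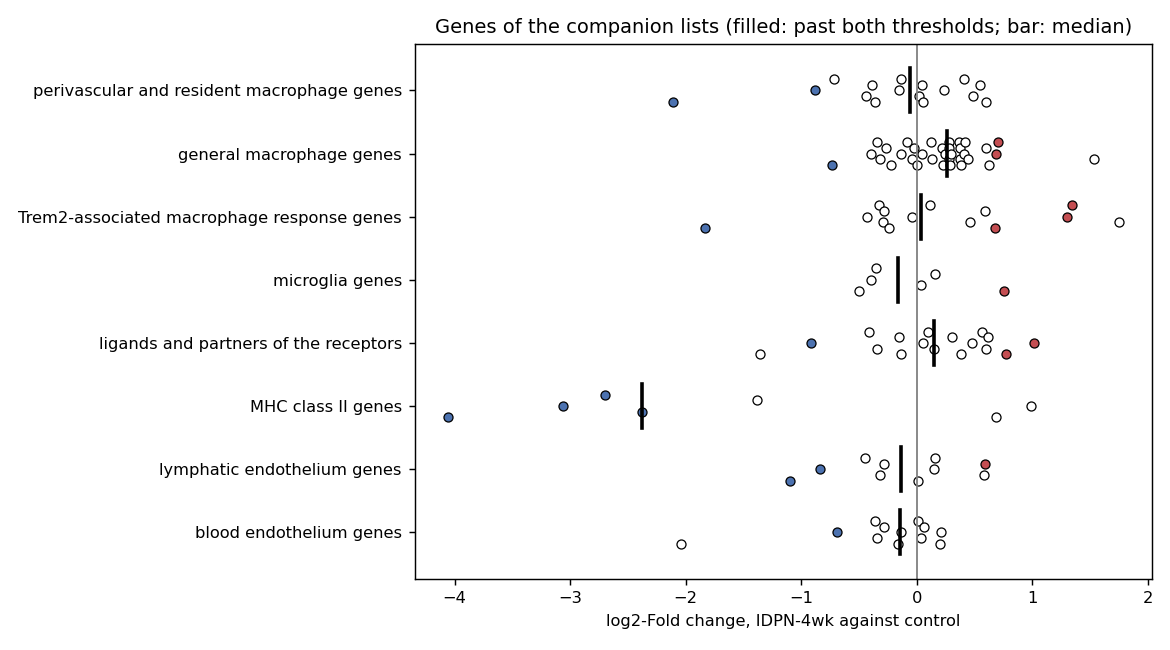
Log2-Fold change of IDPN-4wk against control for each tested gene of 8 gene lists, none of which holds any of the 10 macrophage genes; filled points passed both thresholds (red higher, blue lower), and the vertical bar is the median of the list. The median is -0.06 for perivascular and resident macrophage genes, 0.26 for general macrophage genes and -2.38 for MHC class II genes.

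Lymphatic endothelium, the other known source of Lyve1, was assessed with 13 genes, 10 of them tested. The lymphatic chemokine Ccl21 was at 0 in all 6 libraries, and Mmrn1 was at 0.646, 0.0699 and 0 CPM in control and at 0 in all IDPN-4wk libraries. Flt4, the VEGF-C receptor of lymphatic vessels, was at 7.04, 8.32 and 6.09 CPM in controls against 6.47, 8.51 and 8.95 CPM in IDPN-4wk (log2-Fold change 0.16, edgeR Padj 0.625). Prox1, the master regulator of lymphatic identity, which supporting cells of the inner ear also express, had -0.32 (edgeR Padj 0.131). Levels of the lymphatic markers thus ranged from 0 to clearly detected. Pdpn was higher in IDPN-4wk, as follows, and which cells carried it was not tested.

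Pdpn, podoplanin, was 1.49 times its control level, from 53.5 ± 3.37 to 79.9 ± 5.05 CPM (SD over n = 3 animals each; log2-Fold change 0.58, edgeR Padj 0.000948), just under the fold change threshold and with no overlap. In this list 2 genes fell, Reln (-1.10, edgeR Padj 0.000521) and Sema3d (-0.84, edgeR Padj 0.0290), and 1 rose, Tbx1 (0.59, edgeR Padj 0.0168), beside 6.62% lower and 3.09% higher over all genes. The call of Sema3d was lost in 5 of the 6 fits that left out a library, all but that without IDPN-4wk replicate 3, and that of Tbx1, close to the fold change threshold, in 6 of 12 alternatives. Higher genes numbered 2 without control replicate 2 and with upper quartile scaling or library size alone, and 0 without control replicate 1 or 3, with DESeq2 size factors and with the DESeq2 test. The median of the list was -0.14 and its summed level was 186 to 201 CPM in controls against 196 to 214 CPM in IDPN-4wk. The ratio of Lyve1 to Flt4 was 2.71-fold, that to Prox1 3.74-fold and that to Pdpn 2.02-fold higher in IDPN-4wk, each with no overlap. These ratios, too, rest on the rise for which Lyve1 was chosen. Whether macrophages, lymphatic endothelium or other cells carried the Lyve1 transcripts was not tested.

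Blood vessels were represented by 12 tested genes with a median of -0.15, of which 1 fell, beside 6.62% of all genes: Flt1 (log2-Fold change -0.69, edgeR Padj 0.0194). This call was lost without control replicate 2 (-0.41), the library with the highest Flt1, without IDPN-4wk replicate 1 or 2, and when scaled by library size alone. Summed over the vessel genes, the level was 612 to 824 CPM in controls against 589 to 646 CPM in IDPN-4wk. Red blood cell genes, by contrast, had 2 higher rows of 7 tested, beside 3.09% of all genes: 1 of the 2 rows named Hba-a2 (0.68, edgeR Padj 0.0319) and Hbb (0.66, edgeR Padj 0.0380). Globin copies share reads, both were highest in IDPN-4wk replicate 2, the library with the lowest summed level of the 8 macrophage genes, and the calls were lost in 6 and 7 of 12 alternatives. The count of higher rows was 0 in the 5 fits that left out any library but IDPN-4wk replicate 3, and 4 without that replicate or when scaled by library size alone. The part of blood content in the macrophage values was not tested.

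Genes of blood-borne leukocytes were mostly under the filter on low counts. Of 16 monocyte and neutrophil genes, 12 had rows with too few counts to be tested, and 2 were tested, Vcan and Csf3r. In edgeR, 0 of the 2 passed both thresholds, and 1 had an unadjusted p under 0.05, beside 33.1% of all genes tested. Of 21 lymphocyte, dendritic and mast cell genes, 3 were tested, 0 passed both thresholds in edgeR and 2 had an unadjusted p under 0.05 (33.1% of all genes), Kit (-0.39, edgeR Padj 0.0574), which is not specific to mast cells in this tissue, and Cd3g (0.73, edgeR Padj 0.0971). Cd3g passed both thresholds without IDPN-4wk replicate 1 (0.95, edgeR Padj 0.0436) and when scaled by library size alone (0.84, edgeR Padj 0.0494). Cd3e and Cd3d were under the filter. Cd3g was thus the only CD3 chain on the list with enough counts to be tested.

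MHC class II genes had the median farthest from 0 of all the lists used here. Of 7 tested, 4 fell and 0 rose, beside 6.62% lower and 3.09% higher over all genes, with a median log2-Fold change of -2.38. The count of higher genes was 1 with the DESeq2 test, with library size alone, with no filter on low counts and without IDPN-4wk replicate 2. Cd74, the invariant chain of class II molecules, fell from 28.8, 45.5 and 22.9 CPM in control to 5.32, 4.80 and 4.83 CPM in IDPN-4wk (log2-Fold change -2.70, SE 0.24, edgeR Padj 4.85e-05). RT1-Da, a class II chain, fell to 18.6% of control (log2-Fold change -2.38, edgeR Padj 0.00274). RT1-Ba and RT1-Bb were also called lower (edgeR Padj 0.00501 and 0.00122), from 13 to 46 and 23 to 30 counts per control library to 3 to 4 and 0 to 3 counts per IDPN-4wk library. Their IDPN-4wk counts lay at or near the floor of 3 counts, so no fold is given.

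Not every class II gene was called lower. RT1-Db1 had a log2-Fold change of -1.38, with all IDPN-4wk libraries below control, but was not called (edgeR Padj 0.0533). RT1-DMb and RT1-DMa, chains of the molecule that loads peptides, had 0.98 (edgeR Padj 0.0620) and 0.68 (edgeR Padj 0.343), and RT1-DMb was above control in all 3 IDPN-4wk libraries. These genes are polymorphic and their copies share reads, so the single values are less certain. In the same libraries where Lyve1 was 3.01-fold higher, Cd74 was at 15.4% of its control level, and the groups did not overlap for either gene. Csf1r, Mrc1 and Ptprc showed neither pattern.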

How the data were processed

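RNA-seq was done on pooled utricles and cristae of 6 rats. The deposited values are expected counts per gene, which the authors made by mapping reads with STAR 2.5.3a to Rnor6.0 and quantifying them with RSEM 1.3.0, versions as given in the submitters' processing notes. RSEM divides reads that match several genes among them. The counts were whole as deposited, and rounding changed 0 values. Groups came from the treatment label. The members and lists were chosen with earlier results of these data known, so calls of the members are counted as a description and no p is given for them. Replicates were numbered here in accession order, which pairs nothing.

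Low genes were removed by filterByExpr (at least 10 counts, total of at least 15) and the rest fitted in edgeR 4.0.16 by quasi-likelihood on group, with TMM factors and Benjamini-Hochberg adjustment over all genes tested. This was checked on simulated data. Counts lay between 13358678 and 18561991 per library, with at least 99.9% in tested genes, which at 3 counts sets a floor of 0.155 to 0.216 CPM, for counting error only. No 2 libraries of a group agreed within sampling noise (chi-square per degree of freedom 7.94 to 16.1). Ratios used a pseudocount of 0.5. SE is the absolute log2-Fold change divided by the square root of F. With 3 against 3, an exact permutation test cannot go below 0.1, so none is given, and p-values rest on the spread between animals.

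Alternatives were DESeq2 1.42.0 (test, and its size factors alone), upper quartile scaling, library size alone, no filter, limma-voom 3.58.1, a ratio pseudocount of 1 and leaving out each library. Named were the 10 members, the genes of each list past both thresholds or else the 2 with the smallest p, receptor partners and the 5 genes most like Lyve1. Others given as context (Folr2, Stab1, F13a1, Clec10a, Siglec1, Colec12, Maf, Ms4a6a, RT1-Db1, RT1-DMa, RT1-DMb, Spi1, Adgre1, C1qa, C1qc, Itgax, Apoe, Flt4, Prox1, Pdpn, Hyal1, Hyal2, Hyal3 and genes at or near 0) were chosen after their values were seen. Mouse and streptomycin data of the study were not used here.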

Additional observations from a re-analysis of the deposited data

How the results depend on the processing

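Lyve1 showed a log2-Fold change of 1.504 to 1.698 over 12 alternatives. Its log2 ratio differed between the groups by 1.78 to 2.57 for Mrc1, 2.18 to 2.92 for Cd163 and 1.51 to 1.77 for the summed general macrophage genes. With library size alone as the scaling, 762 genes were higher instead of 444 and the median over all genes tested was 0.13; upper quartile scaling put that median at 0.05, and leaving out a library put it between 0.0056 and 0.02. Leaving out a library moved the median of the 9 macrophage genes from -0.45 to 0.31 and that of the 8 without Lyve1 from -0.62 to 0.10, the extremes being without IDPN-4wk replicates 1 and 2. Macrophage genes past both thresholds numbered 1 to 2 when a library was left out, the second being Mrc1 without IDPN-4wk replicate 1, Cd163 without control replicate 3 or Cd68 without control replicate 2. They numbered 2 with the DESeq2 test, which added Cd163 (-1.07). Of the 34 general macrophage genes, 1 to 2 were lower and 1 to 3 higher when a library was left out. The cause of these moves was not tested. Of the other results, single genes included, 887 values stayed on their side of the threshold or within the limits set for a move, 41 counts or medians moved past them, 35 lost a call and 9 gained one. No paired analysis was possible because the labels give no replicate numbers; those used here follow accession order. For genes at or under the floor of 3 counts in both groups, no change was detectable at this depth.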
